A study of Rattus norvegicus with 12 samples.

Results

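The smooth muscle contractile genes encode the actins, myosin subunits and actin-binding proteins with which smooth muscle cells generate force. The 10 genes taken here were Acta2, Actg2, Myh11, Myl9, Tagln, Cnn1, Smtn, Tpm1, Tpm2 and Lmod1, selected by symbol from the 22850 features of the count and FPKM tables. All 10 were found and all 10 passed the filter on low counts in each comparison. Their levels were measured by mRNA sequencing of primary atrial fibroblasts from Sprague-Dawley rats 1 to 3 days old, in 12 libraries and 3 treatments of 4 libraries each.

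Every group received angiotensin II (AngII) at 1 μmol/L for 48 h in medium with 2% FBS. AngII is the peptide hormone of the renin-angiotensin system and a standard stimulus of fibroblast activation. The AngII group received nothing else. The AngII+HNG group was also given 10 μmol/L HNG, an analogue of the mitochondrial-derived peptide humanin, from 1 h before AngII, and the AngII+MOTS-c group was given 5 μmol/L of the mitochondrial-derived peptide MOTS-c from the same time. Cells not given AngII are not analysed here, so the response of these genes to AngII itself was not measured, and HNG and MOTS-c were given at different doses. Fibroblasts were obtained by differential adhesion, which enriches them from the dissociated atria without sorting. The study's methods call the 4 libraries of a group biological replicates, but the labels give no culture or animal for any of them, so p-values measure the spread between these libraries.

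A quiescent fibroblast expresses little of the smooth muscle programme, whereas an activated fibroblast, or myofibroblast, assembles stress fibres of α-smooth muscle actin, the product of Acta2. Transcription of these genes is controlled in large part by serum response factor (SRF), which binds a short AT-rich element called the CArG box together with myocardin or the myocardin-related transcription factors. Acta2 and Tagln are therefore common markers of fibroblast activation in the heart, while Myh11, Cnn1, Smtn and Lmod1 are known best from differentiated smooth muscle.

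Because the CArG box is the best known element of these promoters, reference sequence around a start site of the genes was searched for it. Promoter windows of 300 bases, from 250 before to 50 after the start site, were matched in RefSeq (build GRCr8) for 6 of the 10 genes, namely Acta2, Actg2, Cnn1, Smtn, Tpm1 and Tpm2. The start sites of Acta2 and Cnn1 are the outer ends of their RefSeq genes, whereas those of the other 4 lie inside the annotated span, farthest for Actg2, so other start sites of these genes were not searched. The CArG box, CC followed by 6 letters that are each A or T and then GG, reads as the same pattern on both strands. It was in 0 of these 6 windows and in 1.64% of the 33465 windows of the table. A looser form with at most 1 G or C among the middle letters was then tried, a choice made after the strict form had been seen in no window. It was in the Acta2 window only, where it occurred 2 times, at 134 and 84 bases before the start site, against 9.42% of all windows with at least 1 such box and 0.846% with at least 2. The 150 bases before the start site are given for Acta2 (chr1:241172504-241172653, minus strand), with both boxes in capitals, and for Cnn1 (chr8:28908287-28908436, plus strand), the gene that differed most with HNG, which held none in its window.
Acta2: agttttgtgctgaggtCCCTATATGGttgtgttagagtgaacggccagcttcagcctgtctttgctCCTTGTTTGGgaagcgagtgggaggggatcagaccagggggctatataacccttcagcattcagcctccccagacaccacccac
Cnn1: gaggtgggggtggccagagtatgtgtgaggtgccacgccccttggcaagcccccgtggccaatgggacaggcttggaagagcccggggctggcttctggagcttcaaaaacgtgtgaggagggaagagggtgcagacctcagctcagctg
These matches describe the letters of the reference windows. No binding was measured in these cells.

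Between 27960586 and 38322354 counts were obtained per library, and the 10 genes were covered by 1226 (Actg2) to 162052 (Acta2) counts in each. The 10 genes together took 0.915% to 0.981% of the counts of the AngII libraries, 0.753% to 0.834% of the AngII+HNG libraries and 0.894% to 0.963% of the AngII+MOTS-c libraries. Libraries of one group differed by more than sampling noise, with a chi-square of 4.40 to 19.4 per gene between pairs, and AngII+HNG replicate 3 stood farthest from its group. The labelled cell type was checked against marker genes. The fibroblast genes Col1a1, Col1a2 and Col3a1 had medians of 4256, 3244 and 4081 FPKM (a level per gene length and library total). Markers of cardiomyocytes were also high, with medians of 2472 FPKM for Nppa, 728 for Tnnt2 and 337 for Myh6, so the cultures were not free of cardiomyocyte transcripts. In RNA from a whole culture, fewer cells of a type and less RNA per cell cannot be told apart.

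In cells under AngII alone the 10 genes covered a wide range of levels. By FPKM, which is comparable between genes, Acta2 was highest with 2827 ± 65.9 (SD, n = 4), the place 11 among all genes. Tagln followed with 1950 ± 80.3, at place 18. Tpm1 had 716 ± 24.8, Tpm2 637 ± 56.9 and Myl9 595 ± 29.9. The remaining 5 genes were much lower, from Cnn1 with 96.1 ± 1.82 through Smtn with 53.7 ± 1.05, Actg2 with 32.9 ± 1.21 and Myh11 with 25.4 ± 0.518 to Lmod1 with 22.0 ± 1.36. Neighbours in this order did not overlap in the AngII libraries except Tpm2 and Myl9, where Tpm2 was the higher in 3 of 4 libraries. The order was the same under HNG and under MOTS-c, with overlap of Tpm2 and Myl9 under HNG and of Tpm1 with Tpm2 and Myh11 with Lmod1 under MOTS-c.

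**Figure D1:**
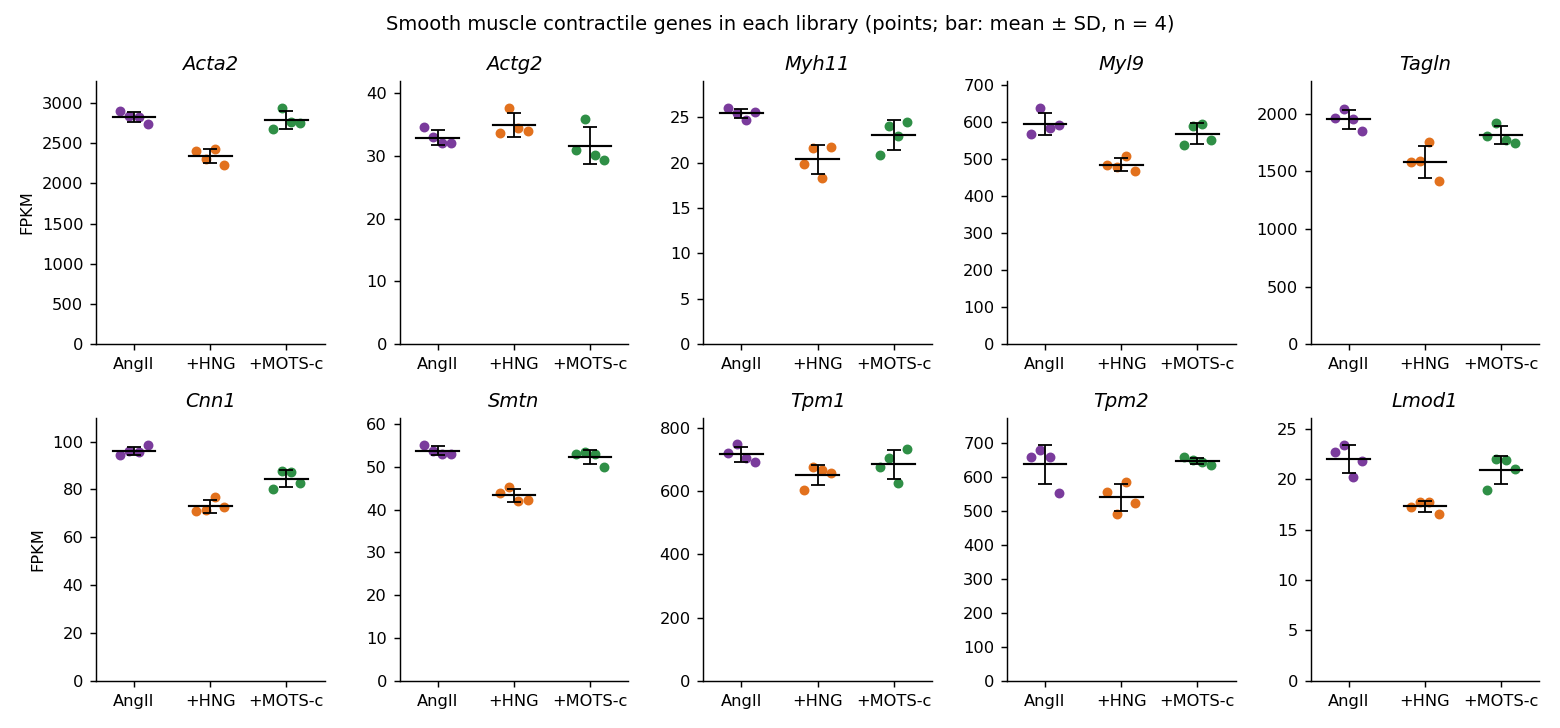
FPKM of the 10 contractile genes (vertical axes from 0, one scale per gene) in each library of the 3 treatments. Points are libraries, and the bars give the mean ± SD of 4. The AngII+HNG points lie below all AngII points for 8 genes, and overlap them for Tpm2 and Actg2.

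HNG was compared with AngII alone to ask whether the peptide changed the contractile genes of AngII-treated fibroblasts. Of the 10 genes 8 fell and none rose, with changes from -25.0% (Cnn1) to -12.2% (Tpm1). The 8 were Acta2, Myh11, Myl9, Tagln, Cnn1, Smtn, Tpm1 and Lmod1. Tpm2 was lower on average but did not pass the test, and Actg2 was not lower. Among all 14524 genes tested, 2.58% were called lower and 3.40% higher at an adjusted p-value below 0.05 (edgeR's quasi-likelihood test, Benjamini-Hochberg adjustment over all genes tested). These are 375 lower and 494 higher genes, while limma on log2(FPKM + 1) gave 210 lower and 430 higher and called 7 of the 10 contractile genes lower. The median log2 fold change was -0.31 over the 10 genes and 0.0043 over all genes. The AngII and AngII+HNG libraries did not overlap for the same 8 genes, whereas 6.82% of all genes were lower without overlap. Without AngII+HNG replicate 3, which stood farthest from its group, 9 of the 10 genes were called lower, against 413 of all 14647 tested. Without AngII replicate 1 or 2 it was 7 of the 10, against 177 of 14643 and 215 of 14639 genes.

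Among the actins, Acta2 encodes the α-smooth muscle actin of stress fibres. Its FPKM was 2903, 2836, 2825 and 2743 in AngII replicates 1 to 4, and 2398, 2305, 2424 and 2229 in AngII+HNG replicates 1 to 4. The lowest AngII library was thus above the highest AngII+HNG library, and the groups did not overlap. The log2 fold change was -0.29 (SE 0.037, adjusted p = 0.000727, edgeR), and the level decreased by 18.3% (95% interval from -22.7% to -13.6%). Actg2, the enteric γ-smooth muscle actin, had 34.6, 33.0, 32.0 and 32.0 FPKM under AngII and 33.6, 37.6, 34.4 and 33.9 under HNG. The groups overlapped, and AngII+HNG replicate 2 was the highest library of both groups. The log2 fold change of Actg2 was 0.07 (SE 0.051, adjusted p = 0.479), with a 95% interval from -0.04 to 0.18. The difference between the changes of Acta2 and Actg2 was not tested. As a description within each library, the FPKM of Actg2 per 100 of Acta2 was 1.13 to 1.19 under AngII, 1.40 to 1.63 under HNG and 1.07 to 1.22 under MOTS-c. Actin genes have similar coding sequences, whose identity was not computed here, so reads may be divided between Acta2, Actg2, Actc1 and Acta1 with some error. Actc1 and Acta1 are the cardiac and skeletal genes. Actc1, a cardiomyocyte gene as well, had a log2 fold change of 0.0017 (SE 0.061, adjusted p = 0.991).

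The myosin members are Myh11, the smooth muscle myosin heavy chain, and Myl9, a regulatory light chain whose phosphorylation switches the motor on. Myh11 had 26.0, 25.4, 24.7 and 25.6 FPKM under AngII and 19.8, 21.6, 18.3 and 21.7 under HNG. All AngII+HNG libraries were below all AngII libraries, with the lowest value in replicate 3. The log2 fold change was -0.34 (SE 0.049, adjusted p = 0.00152). For Myl9, 567, 637, 583 and 592 FPKM were found under AngII and 482, 478, 509 and 467 under HNG. The groups were apart again, and Myl9 fell by 0.31 on the log2 scale (SE 0.044, adjusted p = 0.00148).

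Among the actin-binding proteins, Cnn1 (calponin 1), which inhibits the myosin ATPase, changed the most. Its FPKM was 94.2, 96.1, 95.4 and 98.5 under AngII against 71.1, 71.2, 76.8 and 72.8 under HNG. Both groups were tight and far from each other, and the log2 fold change was -0.41 (SE 0.039, adjusted p = 0.000126), the place 10 by p-value among all genes tested. Tagln (transgelin, or SM22α), which cross-links actin, had 1959, 2043, 1953 and 1847 FPKM under AngII and 1576, 1584, 1756 and 1414 under HNG. The AngII+HNG libraries were more spread than the AngII libraries, with replicate 3 highest and replicate 4 lowest, but the groups did not overlap. Tagln fell by 0.32 on the log2 scale (SE 0.057, adjusted p = 0.00583). Smtn (smoothelin), a protein of contractile filaments, had 55.2, 53.8, 52.9 and 53.1 FPKM under AngII and 43.8, 45.2, 42.0 and 42.3 under HNG. The groups were separated, with a log2 fold change of -0.31 (SE 0.037, adjusted p = 0.000511).

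The tropomyosins lie along the actin filament and gate the access of myosin. Tpm1 had 719.5, 749, 704 and 692 FPKM under AngII and 603, 676, 666 and 658 under HNG. The distance between the groups was small but they did not overlap, and Tpm1 fell by 0.19 on the log2 scale (SE 0.041, adjusted p = 0.0179). The call of Tpm1 was lost without AngII replicate 1 or without AngII replicate 2, and when FPKM was tested with limma. The gene length implied by the counts and FPKM of Tpm1 averaged 1.61 kb under HNG and 1.64 kb under AngII. Tpm2 had 658, 679, 658 and 553 FPKM under AngII and 556, 492, 587 and 525 under HNG. AngII replicate 4 lay among the AngII+HNG libraries, so the groups overlapped, and the log2 fold change of -0.24 (SE 0.067, adjusted p = 0.0510) missed the threshold by a small margin. It passed in 9 of 18 alternative settings. Both genes are spliced into muscle and non-muscle isoforms that these gene totals do not separate. Lmod1 (leiomodin 1), which nucleates actin filaments, had 22.7, 23.3, 20.2 and 21.8 FPKM under AngII and 17.2, 17.7, 17.7 and 16.5 under HNG. The groups did not overlap, and Lmod1 fell by 0.37 on the log2 scale (SE 0.050, adjusted p = 0.00116).

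**Figure D2:**
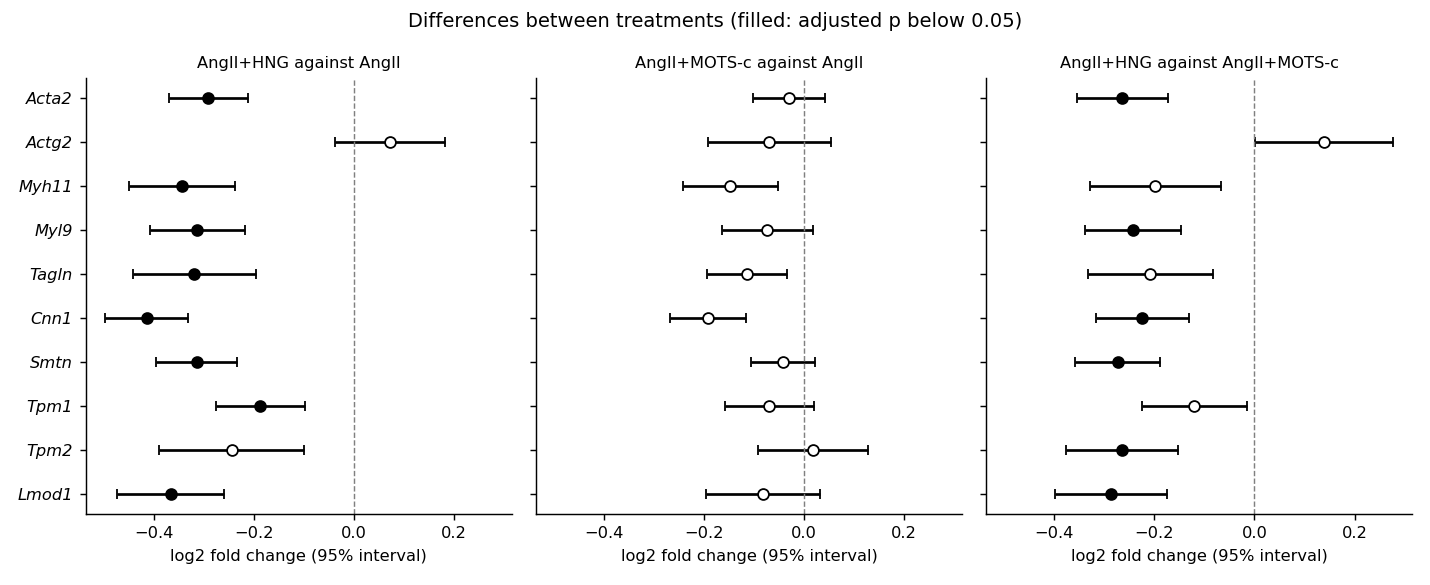
Log2 fold changes of the 10 genes (horizontal axes, with 95% intervals of the edgeR fits) in the 3 comparisons. Filled points have an adjusted p-value below 0.05: 8 of 10 for AngII+HNG against AngII, 0 for AngII+MOTS-c against AngII and 6 for AngII+HNG against AngII+MOTS-c.

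MOTS-c was compared with AngII alone in the same way. None of the 10 genes passed the threshold by edgeR, and 1 of the 14488 genes tested did in either direction (0.00690%). At an unadjusted p-value below 0.05, 3 of the 10 genes, Cnn1, Myh11 and Tagln, were lower, against 2.61% of all genes. Cnn1 had 80.1, 87.6, 87.5 and 82.9 FPKM under MOTS-c, all below the 94.2 to 98.5 of AngII alone. Its log2 fold change was -0.19 (SE 0.035, unadjusted p = 9.5e-05, adjusted p = 0.690, edgeR), and DESeq2 called it with an adjusted p of 0.00442, the only gene of the 10 that it called. Myh11 had 20.8, 24.0, 22.9 and 24.4 FPKM under MOTS-c, also without overlap with AngII, and a log2 fold change of -0.15 (SE 0.044, adjusted p = 0.924). These 2 genes were the ones of the 10 that were lower without overlap, against 1.73% of all genes. For Tagln, 1807, 1921, 1772 and 1747 FPKM were found under MOTS-c. Replicate 2 reached into the AngII range, and the log2 fold change was -0.11 (SE 0.037, adjusted p = 0.924).

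Acta2 under MOTS-c had 2673, 2940, 2769 and 2753 FPKM. Replicate 2 was above every AngII library and replicate 1 below all of them, so the groups overlapped. The log2 fold change of Acta2 was -0.03 (SE 0.033, adjusted p = 0.949), and its 95% interval from -0.10 to 0.04 did not reach the -0.29 of HNG. The other 6 genes had log2 fold changes from -0.08 (Lmod1) to 0.02 (Tpm2), with overlapping groups in each. Under MOTS-c, Tpm2 lay in a narrow range from 636.5 to 659 FPKM, and Smtn had 53.1, 53.4, 53.1 and 49.9 FPKM against 52.9 to 55.2 under AngII. Myl9 had 536 to 594 FPKM, Tpm1 627 to 732, Lmod1 18.9 to 21.9 and Actg2 29.4 to 35.9. The median log2 fold change over the 10 genes was -0.07.

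The peptides were compared with each other directly, although at different doses. Under HNG 6 of the 10 genes were lower than under MOTS-c, against 1.77% of the 14448 genes tested that were called lower and 2.64% that were called higher. Acta2 fell by 0.26 on the log2 scale (SE 0.042, adjusted p = 0.00355, edgeR; adjusted p = 0.0663 with limma on log2(FPKM + 1), which called 121 genes lower and 316 higher in all against 256 and 381) and Smtn by 0.27 (adjusted p = 0.00234). Lmod1 was lower by a log2 fold change of -0.29 (adjusted p = 0.00730), Tpm2 by -0.27 (adjusted p = 0.0114), Myl9 by -0.24 (adjusted p = 0.00810) and Cnn1 by -0.22 (adjusted p = 0.0107). Tpm2 thus passed the threshold against MOTS-c but not against AngII. Tagln (-0.21, adjusted p = 0.0617), Myh11 (-0.20, adjusted p = 0.0895) and Tpm1 (-0.12, adjusted p = 0.196) did not pass, and Actg2 had the opposite sign (0.14, adjusted p = 0.253). All 10 genes had an unadjusted p-value below 0.05, as did 19.3% of all genes. The 6 called genes and Tagln were lower without overlap on the scale of CPM (counts relative to the TMM-scaled size of each library), against 6.24% of all genes. In FPKM the Tagln groups overlapped at their edges, 1756 in AngII+HNG replicate 3 against 1747 in AngII+MOTS-c replicate 4. The comparison shares its AngII+HNG libraries with the first comparison, so the lists of called genes are not independent.

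Acta2 was also set against Actb, the cytoplasmic β-actin that served as reference gene in the qPCR of the study. The ratio of the FPKM of Acta2 to that of Actb was 1.04, 1.03, 1.04 and 1.05 under AngII, 0.942, 0.911, 1.14 and 0.955 under HNG and 0.994, 1.09, 1.06 and 1.13 under MOTS-c. Of the AngII+HNG libraries 3 were below all AngII libraries, and replicate 3 was above all of them, with 2130 FPKM of Actb against 2335 to 2547 in the other AngII+HNG libraries. The mean ratio was 1.04 ± 0.00882 under AngII, 0.986 ± 0.103 under HNG and 1.07 ± 0.0576 under MOTS-c (SD, n = 4). The log2 difference was -0.08 for HNG against AngII (two-sided exact permutation test, p = 0.229, adjusted over the 3 comparisons p = 0.343), and the smallest p-value this design allows is 0.0286. Without AngII+HNG replicate 3, the only library of its group above the AngII range, it was -0.16 (exact permutation p = 0.0286). That p-value follows from which library was left out. Without AngII+HNG replicate 2 the difference was -0.048 (exact permutation p = 0.4). For MOTS-c against AngII the log2 difference was 0.03 (exact permutation p = 0.4, adjusted p = 0.4). It was 0.07 (exact permutation p = 0.0286) without AngII+MOTS-c replicate 1, the only library of its group below the AngII range. That p-value too follows from which library was left out. Without AngII+MOTS-c replicate 4 the difference was 0.0070 (exact permutation p = 0.771). For HNG against MOTS-c it was -0.12 (exact permutation p = 0.229, adjusted p = 0.343).

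The reference gene itself fell with HNG. Actb had 2785, 2740, 2726 and 2602 FPKM under AngII and 2547, 2531, 2130 and 2335 under HNG, without overlap, and a log2 fold change of -0.21 (SE 0.055, adjusted p = 0.0411). The other cytoplasmic actin, Actg1, had a log2 fold change of -0.12 (SE 0.047, adjusted p = 0.179). Against Gapdh, a glycolytic enzyme often used as reference, Acta2 had ratios of 5.16 to 5.47 under AngII, 3.83 to 5.11 under HNG and 5.55 to 6.39 under MOTS-c. These ranges of FPKM did not overlap, and the log2 differences of the ratio were -0.28 for HNG and 0.13 for MOTS-c against AngII (exact permutation p = 0.0286 for each, the smallest possible). With counts in place of FPKM, a choice made after the data were seen, the ratios to Gapdh were 5.64 to 5.98 under AngII, 4.19 to 5.18 under HNG and 5.94 to 6.99 under MOTS-c. The AngII and AngII+MOTS-c groups then overlapped, with a log2 difference of 0.10 (exact permutation p = 0.114), while HNG stayed apart (-0.31, exact permutation p = 0.0286). The length implied by the counts and FPKM of Gapdh was 1.44 kb in AngII+HNG replicate 4 and AngII+MOTS-c replicate 1, against 1.33 to 1.34 kb in the other libraries. Against Actg1 the log2 difference for HNG was -0.17 (exact permutation p = 0.0857). The direction found for Acta2 under MOTS-c thus differed between references, since it was -0.03 against Actg1, and Gapdh ranged from 433 to 550 FPKM in the AngII and AngII+MOTS-c libraries and from 436 to 633 under HNG. Among the 6 actin genes Acta2 made up 37.2% ± 0.192 of the summed FPKM under AngII, 34.8% ± 2.04 under HNG and 37.5% ± 0.656 under MOTS-c (SD, n = 4). The groups overlapped, and the highest AngII+HNG library, with 37.7%, lay above all AngII libraries.

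**Figure D3:**
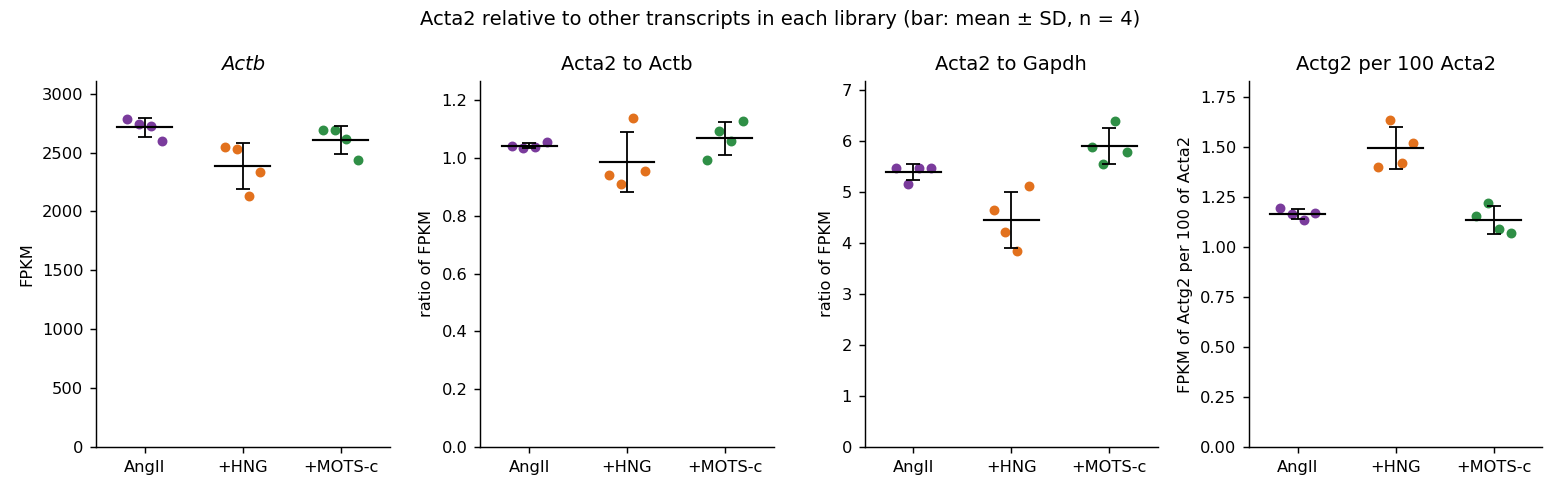
FPKM of Actb, the ratio of Acta2 to Actb and to Gapdh, and Actg2 per 100 of Acta2 (all by FPKM, axes from 0) in each library, with the mean ± SD of 4. AngII+HNG replicate 3 is the lowest library for Actb and the highest for the ratio to Actb, while the FPKM ratios to Gapdh of the 3 treatments do not overlap, which for MOTS-c against AngII does not hold with counts.

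The contractile genes belong to a larger set of genes of smooth muscle and of contraction, which was described by lists. Of 29 other smooth muscle genes, 15 were lower and 1 was higher with HNG than in the AngII group, against 2.58% lower and 3.40% higher of all genes. The list's median log2 fold change was -0.21. The largest decreases were those of Cald1 (caldesmon, -0.38, adjusted p = 0.00041), Kcnmb1 (a subunit of the calcium-activated potassium channel, -0.34), Fhl1 (-0.30), Vcl (vinculin of focal adhesions, -0.29), Actn1 (α-actinin of stress fibres, -0.26) and Pdlim7 (-0.26). Aoc3 was the gene that rose (0.28, adjusted p = 0.0217). Des, the intermediate filament protein of muscle, did not pass, with a log2 fold change of 0.02. The list was chosen with results of these data known, so its counts are not independent evidence for the 10 genes.

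Of 14 genes that control the phosphorylation of the myosin light chain, 4 fell and none rose with HNG (2.58% and 3.40% of all genes). Among them were Mylk, the myosin light chain kinase (-0.23, adjusted p = 0.0257), Rock2, a kinase that inhibits the myosin phosphatase (-0.21), and Ppp1r12a, the targeting subunit of that phosphatase (-0.19). The kinase side and the phosphatase side were thus both represented. Of 17 paralogs of the 10 genes tested, 5 fell and none rose, beside the same shares of all genes. Cnn2 and Cnn3 fell by 0.20 and 0.15 on the log2 scale against 0.41 for Cnn1. The non-muscle heavy chains Myh9 and Myh10 fell by 0.18 and 0.12 against 0.34 for Myh11, and Actb is given above.

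Of 10 tested genes of the SRF pathway and its regulators, 2 fell and 1 rose with HNG, where 2.58% and 3.40% of all genes did. Srf itself fell by 0.18 on the log2 scale (SE 0.044, adjusted p = 0.0334) and its cofactor Fhl2, which is also on the smooth muscle list, by 0.21. Klf4, a repressor of smooth muscle genes, rose from 94.9 to 122 CPM on average, with a log2 fold change of 0.37 (SE 0.047, adjusted p = 0.000736). The coactivators did not pass, with log2 fold changes of -0.13 for Myocd (adjusted p = 0.410) and -0.11 for Mrtfa (adjusted p = 0.246). Under MOTS-c 0 genes of these 4 lists passed against AngII by edgeR. At an unadjusted p-value below 0.05 there were 6 of the 29 smooth muscle genes and 1 of the 14 phosphorylation genes, against 5.05% of all genes in either direction, and DESeq2 called 3 genes in all. The median log2 fold change of the smooth muscle list was -0.05. Between HNG and MOTS-c, 10 of the 29 smooth muscle genes were lower under HNG and 1 was higher, 2 of 14 phosphorylation genes and 2 of 17 paralogs were lower, and Klf4 was higher (0.47, adjusted p = 0.00019). Of all genes 1.77% were lower and 2.64% higher in that comparison.

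**Figure D4:**
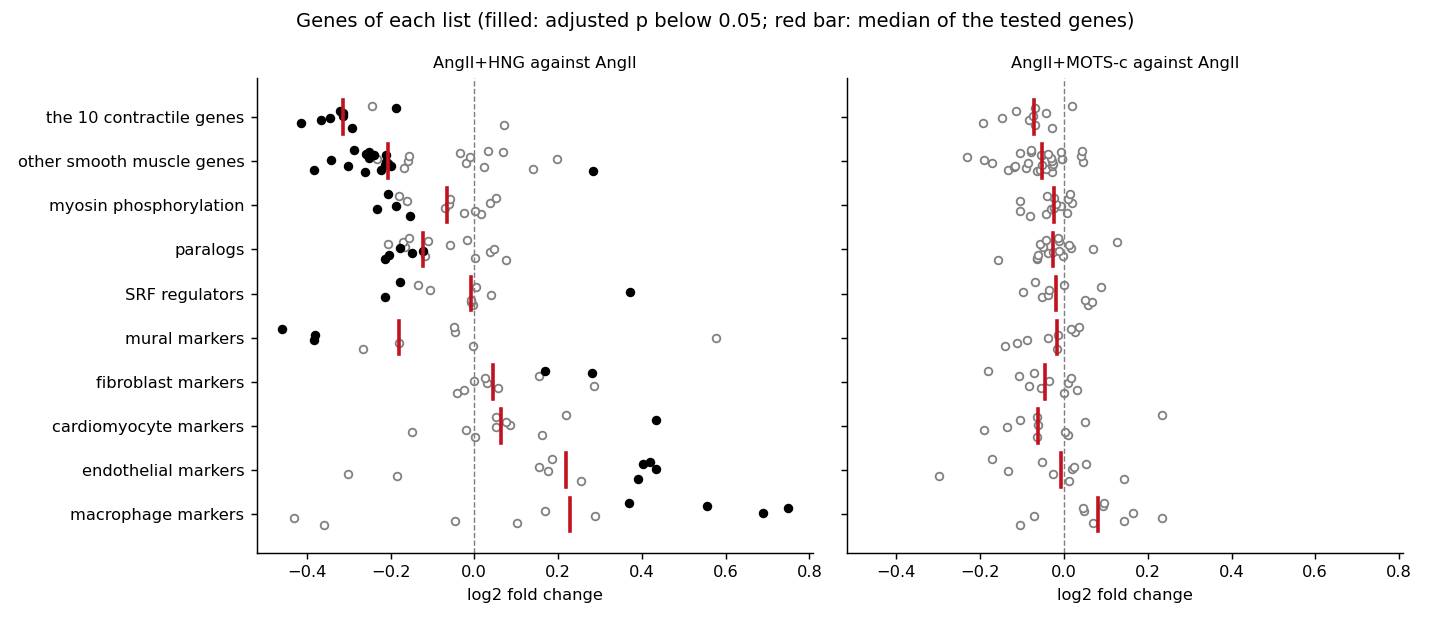
Log2 fold changes of the genes of each list (horizontal axes) with HNG and with MOTS-c against AngII. Filled points have an adjusted p-value below 0.05 and the red bar is the median of the tested genes, -0.31 for the 10 contractile genes and -0.21 for the other smooth muscle genes under HNG.

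Markers of other cell types moved in the comparison of HNG with AngII, in which 2.58% of all genes were called lower and 3.40% higher. Of 9 tested mural cell markers, 3 were lower with HNG and none was higher, and the summed FPKM of the list was 454 to 478 under AngII, 399 to 426 under HNG and 452 to 473 under MOTS-c. Of 10 macrophage markers 4 were higher and none lower, with sums of 138 to 167 under AngII, 199.6 to 265 under HNG and 137 to 167 under MOTS-c. Lyz2 was the largest part of these sums, with means of 81.5 FPKM under AngII and 139 under HNG. The log2 fold change was above 0 for 7 of the 10 and below 0 for 3. Of 10 endothelial markers 4 were higher, with sums of 22.9 to 26.1, 29.0 to 32.0 and 23.1 to 25.8. The sums of fibroblast markers overlapped, at 12125 to 12962 under AngII, 12094 to 13660 under HNG and 12188 to 12975 under MOTS-c, with 2 of 10 genes higher under HNG. The sums of cardiomyocyte markers overlapped too, at 4624 to 4962, 4537 to 5466 and 4149 to 5143, with 1 of 10 genes higher. No marker was at 0 in every library of a group. The lowest medians were those of the mural genes Higd1b (0.252 FPKM) and Ndufa4l2 (0.289 FPKM). Under MOTS-c 0 markers of these 5 lists passed against AngII. An unadjusted p-value below 0.05 was found for 4 of 49 tested markers, against 5.05% of all genes. The part of these cell types in the changes of the contractile genes was not tested.

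Within a treatment, the 10 genes varied little and only partly together. Deviations of log2 CPM from the treatment means were correlated over the 12 libraries in a median of 0.223 for the 45 pairs of genes, from -0.442 to 0.751, and 32 pairs were positive. The highest value was that of Acta2 with Tagln. These correlations are a description over 12 libraries in which all genes of a library share its depth and scaling, and no test was made. AngII+MOTS-c replicate 2 had all 10 genes above its group mean, whereas AngII replicates 3 and 4 had 1 and 2 of 10 above theirs. Among 9147 genes that averaged 10 CPM or more, the deviations most like those of Acta2 were those of Tgfb1i1 (a focal adhesion protein, Pearson's r of 0.915), Vars2 (0.893), Tmem109 (0.852), Mrpl55 (0.852) and Dhx37 (0.842). For Cnn1 they included Dtx3 (0.905), Scap (0.884), Brap (0.849) and Slc31a2 (0.840). Tgfb1i1 was the only one of these named genes whose levels, treatment differences included, also followed those of its member gene with a correlation above 0.9 (0.919). The levels of the other named genes had correlations from -0.50 (Scap) to 0.58 (Dhx37). These genes were picked as the highest of 9147, so their correlations do not test a link.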

How the data were processed

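Libraries were assigned to treatments by their sample titles. Doses and times came from the study's methods. The authors deposited 1 table of unnormalized read counts per gene and 1 table of FPKM, which scales counts by gene length and library total. The length implied by counts and FPKM was not the same in each library, with a spread of 0.463% (Lmod1) to 5.11% (Myh11) for the members and 7.95% for Gapdh, and how the authors set it is not given in the sources used here. The submitters' processing notes name HISAT2, Picard 1.41 and SAMtools 0.1.18. How reads were counted, whether strand was used and the genome build are not given in the sources used here, so overlapping and antisense genes cannot be told apart and no gene coordinates of the tables are given.

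Tests on counts were run with edgeR 4.0.16 (R 4.3.3, filterByExpr, TMM scaling, glmQLFit and glmQLFTest). A fit used only the 8 libraries compared. Genes with a Benjamini-Hochberg adjusted p-value below 0.05 over all genes tested were called, whatever their fold change. Standard errors were derived from the F statistic, and intervals are at 95%. Log2 CPM used a prior count of 2. Ratios of FPKM were tested by two-sided exact permutation over libraries. Depth was 27960586 to 38322354 counts per library.

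The members and lists were chosen with earlier results of these data known. All 10 members are named in every comparison, and from each list at most 6 genes past the threshold in each direction by size of change, together with Actb, Actg1 and the 5 genes most like Acta2 and the 5 most like Cnn1. Of the genes this rule selects, 2 are not reported here. Des, Myocd, Mrtfa and the remaining actins were named after their values were seen. Alternatives were DESeq2 1.42.0, RLE size factors, no filter, at least 10 counts in each library, a joint fit of the 12 libraries, a block for the replicate number or for the library-name number, the sum of replicates 2 and 3 (which share a library-name number), limma 3.58.1 on log2 of FPKM plus 1 or 0.1, other reference genes, and the omission of each library. Promoter windows came from RefSeq, and protein sequences were not used here.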

Additional observations from a re-analysis of the deposited data

How the results depend on the processing

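The count of contractile genes lower with HNG than under AngII (8) was 7 to 9 in 18 alternatives, and 7 to 9 when a library was omitted. The count between HNG and MOTS-c (6) was 5 to 8, and 6 to 7 when a library was omitted. For MOTS-c against AngII it was 0 except with DESeq2 (1). Same-numbered libraries deviated together with correlations of -0.028 to 0.12, 0.020 to 0.13 and -0.0096 to 0.25 in the 3 comparisons, so the numbers were not taken as a pairing. With the replicate block the counts of contractile genes were 9, 0 and 8. Tpm2 was gained for HNG against AngII (edgeR, adjusted p = 0.0199), and Tagln (0.0157) and Myh11 (0.0102) between HNG and MOTS-c. More of all genes were called lower too, 488 of 14524 and 420 of 14448 in these comparisons against 375 and 256 without the block. With replicates 2 and 3 summed the counts were 8, 0 and 6. The 3 calls gained by the block were not made then (0.0778, 0.0595 and 0.168). Of all genes, 250 of 14617 and 145 of 14531 were lower in that setting. The block by library name lost Tpm2 between HNG and MOTS-c (0.0517). For HNG against AngII, only replicate 4 correlated best with its own number in the other group. Replicates 1, 3 and 4 did so for MOTS-c against AngII, and replicates 2, 3 and 4 between HNG and MOTS-c. The replicate block left the log2 differences of the Acta2 to Actb ratio at -0.085, 0.034 and -0.12.

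Directions changed for Acta2 under MOTS-c with the block by library name (0.0021), for Tpm2 under MOTS-c without AngII replicate 4 (-0.042, with 0.052 at the other end of the omissions, without AngII replicate 2) and for the ratio under MOTS-c with Actg1 as reference (-0.029). With Gapdh as reference the ratio differed by -0.28 for HNG, 0.13 for MOTS-c and -0.41 between them, and with counts in place of FPKM by -0.31, 0.10 and -0.41. Omitting a library gave -0.16 to -0.048, 0.0070 to 0.068 (the latter without AngII+MOTS-c replicate 1) and -0.19 to -0.082. The cause of these changes was not tested.

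Over all genes, 869 were called for HNG against AngII, and 431 to 1205 in the alternatives, the lowest without AngII replicate 1. Without AngII replicate 2 or 3 they were 485 and 512, and with replicates 2 and 3 summed 577. Between HNG and MOTS-c the count was 637, with a range of 322 to 1054 whose lowest values were found without AngII+MOTS-c replicate 2 (322) or 1 (324) and the highest with the replicate block. For MOTS-c it was 1, and 0 to 3. Tpm1 and Tpm2, the genes with the smallest decreases under HNG, changed sides of the threshold between alternatives, although each of the 10 genes had at least 1226 counts in every library.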

Other observations

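Cells with contractile genes in the heart include mural cells, the pericytes and smooth muscle cells of vessels. Notch3, a receptor of mural cells, had 346 CPM under HNG against 452 under AngII (log2 fold change -0.38, SE 0.041, adjusted p = 0.000262, edgeR). Mcam, an adhesion molecule of mural and endothelial cells, had 311 against 407 CPM (-0.38, adjusted p = 0.00227), and Rgs4, a regulator of G protein signalling, 44.0 against 60.6 CPM (-0.46, adjusted p = 0.00148). The AngII and AngII+HNG libraries did not overlap for these 3 genes. Ndufa4l2 lay the other way, with 0.340 to 0.588 FPKM under HNG against 0.209 to 0.302 under AngII, also without overlap, but did not pass the test (0.58, SE 0.33, adjusted p = 0.362). Pdgfrb, the most abundant mural marker of the list, had a log2 fold change of -0.05 and did not pass the test.

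Of the fibroblast markers, Tcf21, a transcription factor of resident cardiac fibroblasts, rose from 136 to 165 CPM with HNG (0.28, SE 0.052, adjusted p = 0.00746), and Thy1, a surface protein of fibroblasts, from 115 to 128 CPM (0.17, adjusted p = 0.0220). The macrophage gene Lyz2 rose from 102 to 171 CPM (0.75, adjusted p = 0.000262) and Cd68 from 20.6 to 33.1 CPM (0.69, adjusted p = 0.00343). All 4 were higher without overlap between the groups. Of the 10 macrophage markers 3 had the opposite sign and did not pass the test, among them Adgre1 with 2.62 CPM under HNG against 3.37 under AngII (adjusted p = 0.185) and C1qc with 1.79 against 2.43 (adjusted p = 0.255). Tnni3, a troponin of cardiomyocytes, rose by a log2 fold change of 0.43 (adjusted p = 0.0131), with groups that overlapped in CPM but not in FPKM.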
